A study of Mus musculus with 12 samples.

Results

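The question here is how RNA levels in the newborn mouse forebrain differ when an activated beta-catenin allele is carried on top of an activated Smoothened allele. The comparison takes 6 of the 12 arrays of the study by their titles, 3 named GBS and 3 named GS, and covers every gene that passed a filter on dim signal. GBS mice had the genotype hGFAP-cre::Ctnnb1(ex3)Fl/+SmoM2Fl/+, and their arrays hold what the labels call GBS tumor. GS mice had the genotype hGFAP-cre::SmoM2Fl/+, and their arrays hold forebrain. Both groups therefore carried the Cre driver and the SmoM2 allele, and only GBS carried the Ctnnb1 allele. GB mice (hGFAP-cre::Ctnnb1(ex3)Fl/+) and Control mice (Ctnnb1(ex3)Fl/+SmoM2Fl/+, with no Cre) give a comparison without active SmoM2, again with 3 arrays each. GB and Control both carry the floxed Ctnnb1 allele and differ in Cre, which activates it in GB, and in the silent SmoM2 allele of Control, so Cre differs between them and not between GBS and GS. All pups were taken untreated on postnatal day 0, and each array is a biological replicate per the labels. The human GFAP promoter drove Cre. Radial glia use this promoter, so the alleles are switched on in these cells and their descendants and other cells are not expected to recombine. The tissue differs along with the genotype, tumor in GBS and forebrain in GS, and these cannot be told apart.

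Beta-catenin is the transcriptional arm of WNT signalling. Without a WNT ligand, a destruction complex of AXIN, APC and kinases tags it for degradation through sites encoded by the third exon of Ctnnb1. Removing that exon leaves a protein that accumulates, enters the nucleus and works with LEF and TCF factors on target genes, many of which encode inhibitors of the pathway itself. In the embryonic forebrain WNT signalling from the cortical hem, at the dorsal midline, patterns the pallium and the hippocampus and keeps progenitors dividing. SmoM2 is a form of Smoothened that signals without sonic hedgehog (SHH), whose target genes include Ptch1 and Gli1.

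All values are RMA signals on a log2 scale, so a difference of 1 is a 2-fold change. The 6 arrays correlated across genes at 0.957 to 0.98 within GBS and at 0.903 to 0.986 within GS. GS replicate 3 deviated from its group in the same direction as GB replicate 2 and Control replicate 3, called the 3 deviating arrays here. Xist, transcribed from the inactive X in female cells, was 4.91, 4.85 and 4.94 in GBS, against 4.87, 10.83 and 10.28 in GS, so GS replicates 2 and 3 have the female pattern and all other arrays of the comparison the male one. Receptor genes of the nose (olfactory and vomeronasal), taken here as a gauge of background, had array medians of 4.92, 4.84 and 4.88 in GBS, against 4.88, 4.96 and 5.23 in GS. Emx1, a dorsal forebrain factor, was chosen after its values were seen, so it is no independent check of the forebrain label. Emx1 lay at 7.90 to 8.13 in GBS and 7.92 to 8.22 in GS. Emx2, a related factor given below, was much lower in GS than in GBS. The mean of the 14 tested pallial genes was 7.639 to 7.644 in GBS and 7.46 to 7.57 in GS. En1, a midbrain and hindbrain factor, lay at 6.16 to 6.24 in GBS and 6.25 to 6.51 in GS. Of 12 listed midbrain and hindbrain genes, En2, Hoxa2 and Hoxb4 lay below the filter and 9 passed it. The mean of these 9 was 6.61 to 6.77 in GBS and 6.68 to 6.91 in GS. Array medians over all probe sets were 6.52 to 6.57 in GBS and 6.54 to 6.64 in GS. The part of midbrain and hindbrain tissue was not tested.

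Of the 14195 genes tested, 505 were higher in GBS than in GS and 215 were lower, at an adjusted p under 0.05 in limma. These are 3.56% and 1.51% of all genes, the background against which each count below is read. Rises were larger than falls: 185 of the higher genes (1.3% of all) and 28 of the lower (0.197%) differed by at least 2-fold, and the median difference was 0.87 among the higher and -0.56 among the lower, beside a median of -0.03 over all genes. At an unadjusted p under 0.05 there were 1517 higher and 1124 lower genes. Genes on the X chromosome were called at 4.76%, beside 5.07% of all genes, and 0 of the 6 tested Y genes were called. In a bulk sample, fewer cells of a type and less RNA per cell cannot be told apart. The counts rest on few arrays. Without GS replicate 2 there were 247 higher and 45 lower genes, without GBS replicate 2 there were 268 and 47, and without GS replicate 1 there were 306 and 51. The lower genes numbered 123 without GBS replicate 1, 331 without GS replicate 3 (2.33% of all, with 2.49% higher), and 124, 123 and 129 without Control replicates 1, 2 and 3. Without GB replicate 2 there were 1100 and 580, although that array bears on the contrast through the common variance alone. With the median of nose receptor genes as a covariate 5.95% were higher and 8.89% lower. With Xist as a covariate 124 were higher (0.874%) and 17 lower (0.12%). With only the low-Xist arrays, which leave GS replicate 1 and GB replicate 1 alone in their groups and assume that each varies like the others, 190 were higher (1.34%) and 179 lower (1.26%). In all 505 higher and all 215 lower genes the GBS and GS arrays did not overlap, so such separation adds nothing to a call. None of the 720 called genes changed its sign in any of the 26 alternative fits. Below, a call is said to hold where it was made in all of these 26 in which the gene was tested. Of the genes named by rule, a call neither said to hold nor tied to a left-out array ended only with Xist as a covariate or with only the low-Xist arrays. For a call tied to left-out arrays, the losses given are those with 1 array left out, and other alternatives could end it too.

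The altered genes themselves come first. Ctnnb1, the gene for beta-catenin, had 8.86, 9.19 and 8.93 in GBS, against 8.85, 8.76 and 8.41 in GS. The groups lay just apart, as did 16.5% of all genes with GBS higher and 12.4% with GBS lower, but the difference of 0.32 ± 0.199 did not pass the test (adjusted p = 0.447). Smo had 7.45, 7.52 and 7.34 in GBS, against 7.17, 7.13 and 7.24 in GS, a difference of 0.26 ± 0.106 (adjusted p = 0.218). The exons read by either probe set are not known here, and these values are no check of the alleles.

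WNT target and feedback genes were higher in GBS. Of 17 tested members of a list of such genes, 10 were higher in GBS and 0 lower, with a median difference of 0.79, beside -0.03 over all genes. Wif1, which encodes a secreted protein that binds WNT ligands, had 9.67, 10.05 and 10.004 in GBS, against 6.48, 6.44 and 6.70 in GS. The arrays of the groups were far apart and GBS was 10.3-fold higher (log2 3.37 ± 0.139, adjusted p = 1.15e-06). Axin2, a scaffold of the destruction complex and a standard feedback target, had 8.66, 9.04 and 8.85 in GBS, against 7.15, 7.16 and 7.01 in GS, a difference of 1.74 ± 0.124 (adjusted p = 2.99e-05). Lef1, a DNA-binding partner of beta-catenin that is itself induced by it, had 9.59, 10.26 and 9.66 in GBS, against 7.43, 7.53 and 7.37 in GS, a difference of 2.39 ± 0.17 (adjusted p = 2.99e-05). In both genes the lowest GBS array lay above the highest GS array by more than the whole spread within either group.

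Further feedback inhibitors rose with them. Nkd1, which binds Dishevelled and dampens the pathway, had 9.27, 9.86 and 9.02 in GBS, against 7.30, 7.41 and 7.33 in GS (4.09-fold, adjusted p = 0.000214). Notum, a secreted enzyme that strips the lipid from WNT ligands, had 7.79, 7.76 and 7.57 in GBS, against 6.86, 6.87 and 7.02 in GS, a smaller rise of 0.79 ± 0.101 (adjusted p = 0.0014). Znrf3 and Rnf43, ubiquitin ligases that remove Frizzled receptors, rose by 0.998 and 0.82 (adjusted p = 0.00187 and 0.013). Tnfrsf19, a receptor of the TNF family, had 8.30, 8.59 and 8.30 in GBS, against 6.73, 6.81 and 6.85 in GS, with GBS arrays within 0.29 of each other (difference 1.60 ± 0.0991, adjusted p = 1.63e-05). Apcdd1, a membrane inhibitor of WNT, and Sp5, a transcription factor, rose by 1.68 and 0.68 (adjusted p = 7.82e-05 and 0.0154). The calls of Wif1, Axin2, Lef1, Nkd1, Notum, Tnfrsf19, Znrf3 and Apcdd1 held. Rnf43 no longer passed without GBS replicate 2 or GS replicate 1 (adjusted p up to 0.0575). Sp5 lost its call without GBS replicates 2 or 3 or GS replicates 1 or 2 (adjusted p up to 0.0774). The 7 members that did not pass include Ccnd1, at 7.13, 7.03 and 7.18 in GBS, against 6.85, 6.79 and 6.85 in GS (adjusted p = 0.0972), and Myc, at 8.11, 8.14 and 8.47 in GBS, against 8.60, 8.62 and 8.33 in GS (adjusted p = 0.558). Dkk1, a secreted inhibitor, differed by -0.17 (adjusted p = 0.441) and Lgr5, an R-spondin receptor, by 0.11 (adjusted p = 0.66). Znrf3, Rnf43, Apcdd1, Sp5, Myc, Dkk1 and Lgr5 were chosen for mention after their values were seen. With only low-Xist arrays 10 of the 17 were higher, and with Xist as a covariate 8.

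**Figure D1:**
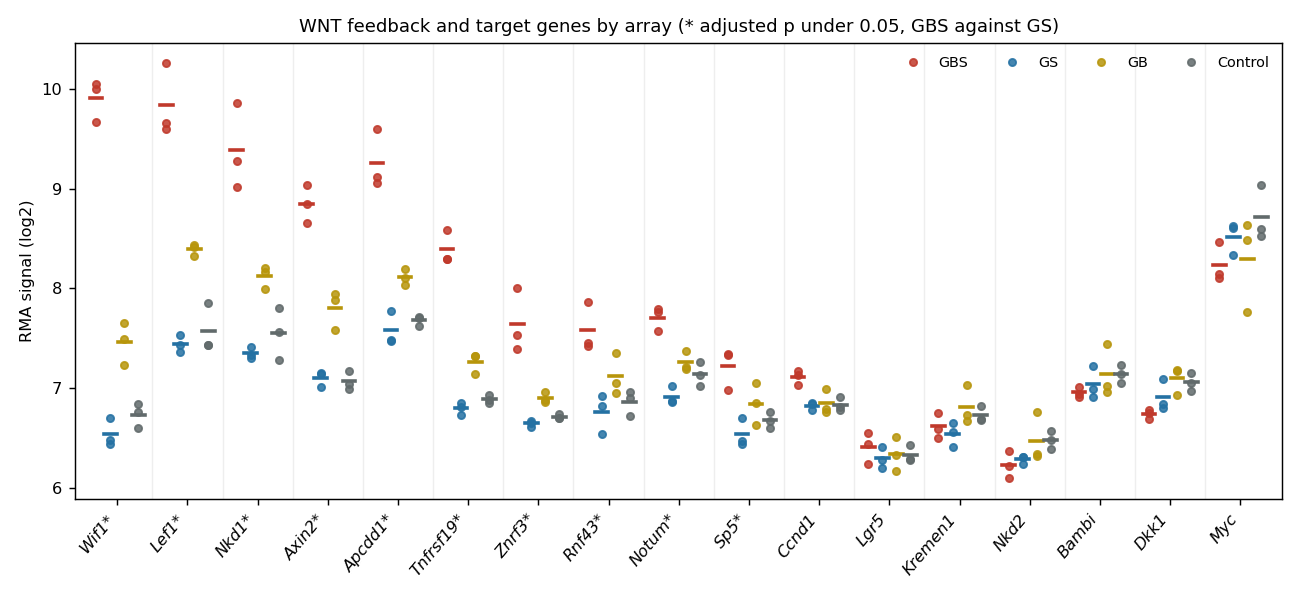
RMA signal (log2) of the 17 tested WNT target and feedback genes in each of 12 arrays, with points for arrays, bars for group means and an asterisk for an adjusted p under 0.05 in GBS against GS. The 10 genes on the left have their 3 GBS arrays above all GS arrays, with GB between GBS and GS in most. The 7 on the right lie close in all 4 groups, though the GBS arrays of Ccnd1 also lie above its GS arrays.

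Sequence upstream of 3 of these genes is shown because LEF and TCF factors bind a short motif, CTTTGAT or, on the other strand, ATCAAAG. Both strands of the 250 bases before each gene's start were searched in RefSeq sequence of build GRCm38.p6, and capitals mark a match. Of the 10 called WNT genes 7 had a window, and 2 of these, Sp5 and Tnfrsf19, held the motif. Over all 32851 windows of this length 3.21% held it, and 4.17% of the 408 higher genes with a window did, beside 2.87% of 11253 tested genes. A match is a description, and no match says only that these letters are not in this window. Sp5 is at chr2:70474673-70474922 on the plus strand, Tnfrsf19 at chr14:61037988-61038237 on the minus strand, at 1 of its 2 listed starts, and Axin2, shown as the window without a match, at chr11:108920099-108920348 on the plus strand. The match begins 104 bases before the start in Sp5 and 202 bases before it in Tnfrsf19.
Sp5: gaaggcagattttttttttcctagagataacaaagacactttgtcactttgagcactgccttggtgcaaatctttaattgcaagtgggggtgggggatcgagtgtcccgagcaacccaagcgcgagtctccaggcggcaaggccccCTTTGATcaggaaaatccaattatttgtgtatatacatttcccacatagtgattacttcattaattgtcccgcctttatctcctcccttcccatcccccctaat
Tnfrsf19: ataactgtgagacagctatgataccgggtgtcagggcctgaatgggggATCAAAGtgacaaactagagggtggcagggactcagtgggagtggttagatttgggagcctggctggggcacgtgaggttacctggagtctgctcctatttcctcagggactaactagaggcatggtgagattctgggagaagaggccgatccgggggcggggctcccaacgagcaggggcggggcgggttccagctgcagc
Axin2: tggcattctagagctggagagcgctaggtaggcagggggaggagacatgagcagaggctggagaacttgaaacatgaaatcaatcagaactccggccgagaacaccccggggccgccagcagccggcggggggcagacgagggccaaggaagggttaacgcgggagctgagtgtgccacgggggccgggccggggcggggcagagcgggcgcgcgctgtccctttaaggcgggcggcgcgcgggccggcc

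Other secreted antagonists moved less evenly. Of 12 tested secreted WNT antagonists 4 rose and 0 fell, with a median of 0.10. Besides Wif1 and Notum these were Sostdc1, which blocks both BMP and WNT ligands, at 8.47, 9.28 and 9.33 in GBS, against 6.58, 6.75 and 6.53 in GS (5.31-fold, adjusted p = 0.000119), and Frzb, a decoy Frizzled, which rose by 0.89 (adjusted p = 0.00594). The call of Sostdc1 held, and that of Frzb ended with only low-Xist arrays (adjusted p = 0.0736) and with Xist as a covariate (adjusted p = 0.063).

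Few ligand and receptor genes passed the test. Of 17 WNT ligand genes 1 was higher and 0 lower (median -0.05). This was Wnt5a, a ligand of the cortical hem that mostly acts outside the beta-catenin branch, at 7.28, 8.07 and 7.29 in GBS, against 6.17, 5.99 and 6.17 in GS (difference 1.44 ± 0.187, adjusted p = 0.00161), and its call held. Among 19 genes for Frizzled and LGR receptors, co-receptors and R-spondins 2 were higher and 1 lower. The R-spondin receptor gene Lgr6 rose by 0.89 (adjusted p = 0.00863) and the Frizzled gene Fzd1 by 0.76 (adjusted p = 0.013), while Rspo2, an R-spondin that protects Frizzled, fell by 0.43 (adjusted p = 0.041). Fzd1 no longer passed without GS replicates 1 or 2 (adjusted p up to 0.0603). Rspo2 lost its call without any 1 array other than GS replicate 3 or GB replicates 1 or 2 (adjusted p up to 0.174). Of 22 genes for beta-catenin, the destruction complex and TCF partners only the co-repressor gene Tle1 passed, higher by 0.80 (adjusted p = 0.0172). Tle1 no longer passed without GBS replicate 2 or GS replicate 2 (adjusted p up to 0.0859).

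SHH targets were compared because both groups carry SmoM2. Of 17 tested pathway genes 3 were higher in GBS and 0 lower (median 0.10). Ptch1, a target gene whose product binds SHH, had 9.40, 9.74 and 9.38 in GBS, against 8.57, 8.62 and 8.46 in GS. All GBS arrays lay above all GS arrays, by 0.96 ± 0.118 or 1.94-fold (adjusted p = 0.00119). Ptch1 differed by 1.43 in GS minus Control, a comparison that uses the same GS arrays, and by -0.00183 in GB minus Control. Gli3, a GLI factor that acts mainly as a repressor and is a regulator of dorsal forebrain identity, had 7.29, 7.43 and 7.19 in GBS, against 6.46, 6.36 and 6.68 in GS (difference 0.81 ± 0.102, adjusted p = 0.00135). The calls of Ptch1 and Gli3 held. Gli2, the main activating GLI factor, rose by 0.42 (adjusted p = 0.0178). Gli2 lost its call without GBS replicates 1 or 3 or GS replicates 1 or 2 (adjusted p up to 0.0889). Gli1, a common read-out of SHH signalling, had 8.11, 8.07 and 7.98 in GBS, against 7.61, 7.51 and 7.80 in GS, with no overlap but no call (difference 0.41 ± 0.13, adjusted p = 0.103). Gli1 passed without GB replicate 2 (adjusted p = 0.0244), without the 3 deviating arrays (0.00235), with the nose receptor covariate (0.00241), after median centring (0.0407) and with array weights (0.000192). It did not pass in the other 21 alternatives (adjusted p up to 0.44), and without the 3 arrays 6 of the 17 SHH genes were higher. Hhip, a target that binds and restrains SHH, had 6.05, 6.39 and 6.25 in GBS, against 6.25, 6.11 and 6.31 in GS, with arrays of the groups interleaved (adjusted p = 0.981).

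Some BMP genes rose. Of 17 tested members 4 were higher and 0 lower (median 0.05). Fst, which encodes follistatin, a secreted binder of activins and BMPs, had 8.84, 9.52 and 9.07 in GBS, against 7.20, 6.93 and 7.20 in GS (4.09-fold, adjusted p = 4.23e-05). Bmp4, a ligand of the dorsal midline, had 8.14, 8.88 and 8.55 in GBS, against 6.95, 6.84 and 6.87 in GS (3.11-fold, adjusted p = 0.000287). Both calls held. Bmp2 and Bmp7, further ligands, rose by 1.41 and 0.65 (adjusted p = 0.0183 and 0.0196). Bmp2 no longer passed without GBS replicate 2 or GS replicates 1 or 2 (adjusted p up to 0.0925). Bmp7 lost its call without GS replicates 1 or 3 (adjusted p up to 0.077). Of 15 Notch pathway genes 1 rose, Rbpj, the DNA-binding factor of the pathway, by 0.52 (adjusted p = 0.0153). Rbpj no longer passed without GBS replicate 2 or GS replicate 2 (adjusted p up to 0.0613). Of 16 FGF pathway genes 0 were called, with 8 differences above 0 and 8 below, and the nearest to a call was the receptor gene Fgfr2 at 0.38 (adjusted p = 0.103).

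**Figure D2:**
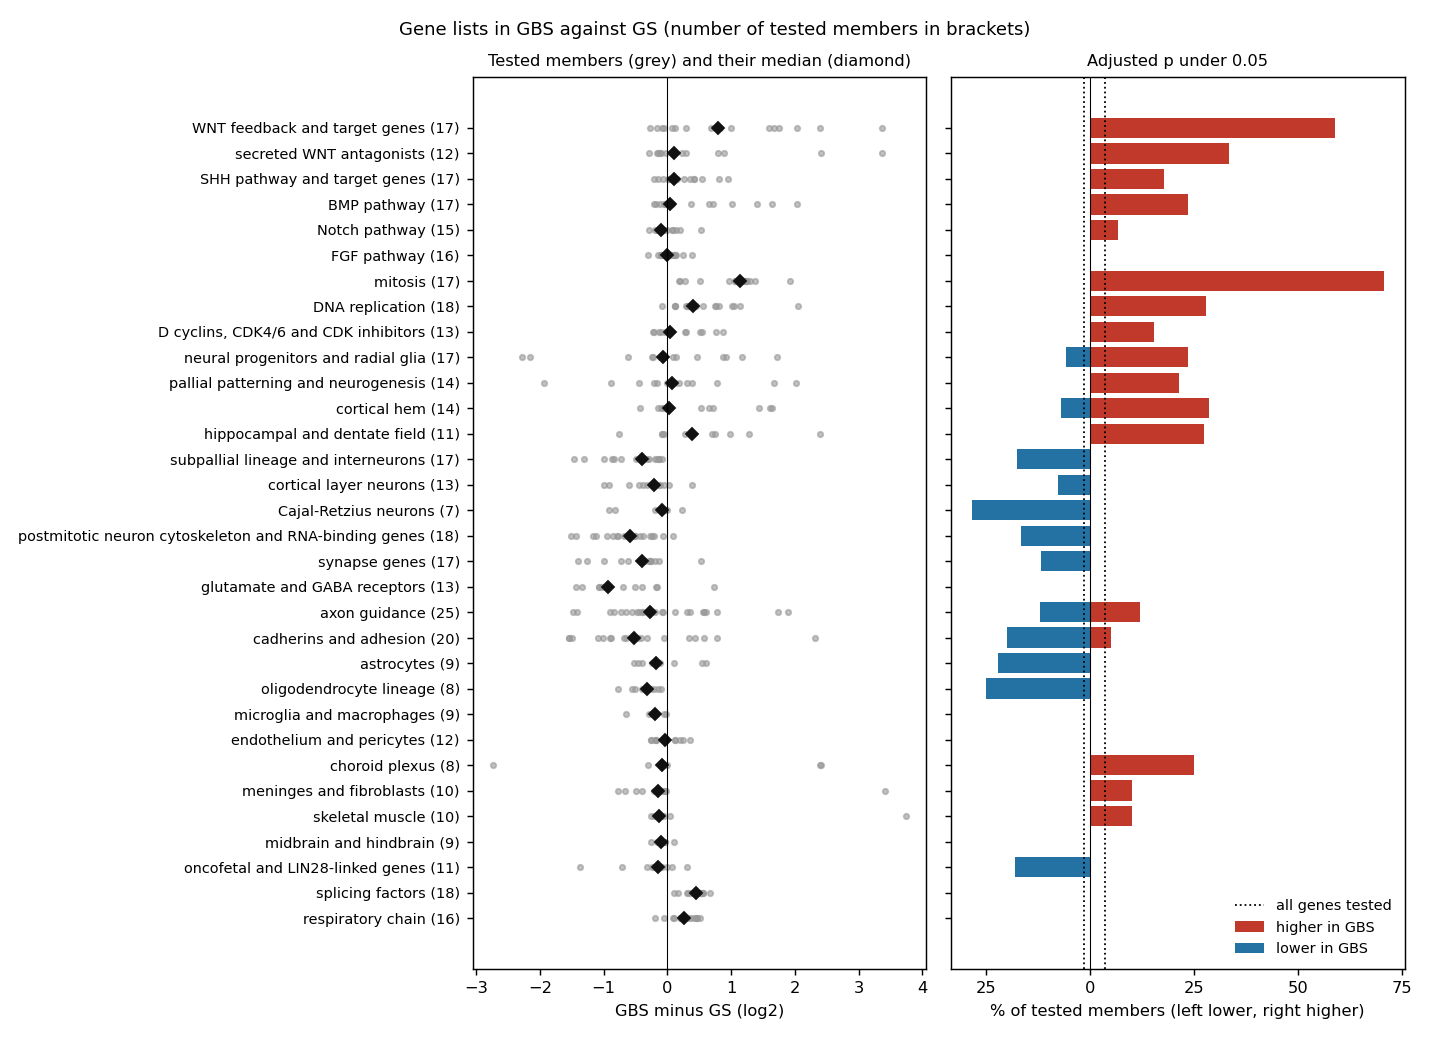
Left, the GBS minus GS difference (log2) of every tested member of 32 gene lists (grey points) with the list median (diamond). Right, the percentage of tested members called higher (red, to the right) or lower (blue, to the left) at an adjusted p under 0.05, with dotted lines at 3.56% and 1.51%, the shares over all genes. WNT targets and mitosis genes have the longest red bars, and no member of the mitosis list lies below 0.

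Genes of dividing cells were higher in the tumors. Of 17 tested mitosis genes 12 rose and 0 fell, all 17 differences were above 0 (as were 43% of all genes tested), and the median was 1.14. Bub1, a spindle checkpoint kinase, had 8.12, 8.96 and 7.98 in GBS, against 6.73, 6.16 and 6.41 in GS (3.8-fold, adjusted p = 0.00238), and its call held. Ccna2 and Ccnb2, cyclins of the late cell cycle, rose by 1.24 and 1.14, and the cytokinesis motor Kif23 by 1.18 (adjusted p = 0.0039 to 0.00946). Mki67, the marker of cycling cells, had 9.54, 9.99 and 8.99 in GBS, against 8.34, 7.86 and 8.66 in GS (difference 1.22 ± 0.255, adjusted p = 0.0202). The mean of the list was 7.93, 8.50 and 7.66 in GBS, against 7.10, 6.79 and 7.16 in GS, highest in GBS replicate 2 and lowest in GS replicate 2. Mki67 lost its call without GBS replicates 1 or 2 or GS replicates 1 or 2 (adjusted p up to 0.0892). The limma call of Mki67 also ended after quantile normalization (adjusted p = 0.0555), with the replicate block (0.0625) and with Xist as a covariate (0.174). With only low-Xist arrays 2 of the 17 mitosis genes rose and with Xist as a covariate 1, while 14 rose without the 3 deviating arrays.

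Some DNA replication genes rose too. Of 18 tested members 5 were higher and 0 lower, with a median of 0.41. The count was 2 without GS replicate 3, 13 without the 3 deviating arrays, 11 with the nose receptor covariate, and 1 both with Xist as a covariate and with only low-Xist arrays. Mcm6, a subunit of the replicative helicase, had 9.07, 9.76 and 8.51 in GBS, against 7.19, 6.93 and 7.06 in GS (4.15-fold, adjusted p = 0.000845), and its call held. Rrm1 and Rrm2, the subunits of the enzyme that makes deoxynucleotides, rose by 1.14 and 0.76 (adjusted p = 0.00865 and 0.0296), and Rfc4, a clamp loader subunit, by 0.81 (adjusted p = 0.0223). Rrm2 no longer passed without any 1 array other than GBS replicate 3 or GB replicates 1, 2 or 3 (adjusted p up to 0.126). Rfc4 lost its call without GBS replicates 1 or 2 or GS replicates 1, 2 or 3 (adjusted p up to 0.0928). Of 13 genes for D cyclins, their kinases and CDK inhibitors 2 rose: Cdk4, the kinase partner of D cyclins, by 0.86 (adjusted p = 0.00846), and the inhibitor Cdkn2c by 0.50 (adjusted p = 0.0137). Cdkn2c no longer passed without GBS replicate 2 or GS replicate 2 (adjusted p up to 0.0708). Ccnd2, a D cyclin of neural progenitors, had 8.88, 9.21 and 8.62 in GBS, against 8.43, 8.20 and 8.47 in GS (adjusted p = 0.0948). In the MYC network 0 of 10 genes were called, and Mycn had 7.36, 7.53 and 7.48 in GBS, against 7.52, 7.56 and 7.72 in GS (adjusted p = 0.461). Of 6 p53 target and apoptosis genes 2 rose, Trp53inp1, a p53-induced nuclear protein, by 0.63 (adjusted p = 0.00865) and the survival gene Bcl2 by 0.48 (adjusted p = 0.0299). Bcl2 lost its call without GBS replicates 2 or 3, GS replicate 2 or Control replicates 1 or 2 (adjusted p up to 0.125).

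Genes of neural progenitors changed in both directions. Of 17 members 4 rose and 1 fell (median -0.07). Prom1, a surface protein of neural stem cells, had 8.59, 9.08 and 8.66 in GBS, against 7.06, 7.02 and 7.12 in GS (3.28-fold, adjusted p = 0.000265), and its call held. Pax6, a factor of dorsal progenitors, had 8.002, 8.70 and 7.99 in GBS, against 7.17, 6.98 and 7.04 in GS (difference 1.17 ± 0.175, adjusted p = 0.00386). Vim, the intermediate filament of radial glia, rose by 0.87 (adjusted p = 0.0196) and Glul, glutamine synthetase, by 0.92 (adjusted p = 0.0377). Vim no longer passed without GBS replicates 2 or 3 or GS replicates 2 or 3 (adjusted p up to 0.0803). Glul lost its call without any 1 array other than GBS replicate 1, GB replicates 2 or 3 or Control replicate 2 (adjusted p up to 0.18). Fabp7, which binds fatty acids in radial glia, had 8.85, 7.82 and 9.32 in GBS, against 11.10, 10.94 and 10.44 in GS. All GBS arrays lay below all GS arrays and GBS was 4.48-fold lower (log2 -2.16 ± 0.429, adjusted p = 0.0158), the largest fall among called genes whose arrays do not overlap. Fabp7 no longer passed without GBS replicate 2 or GS replicates 1 or 2 (adjusted p up to 0.0708).

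Of 14 pallial genes, which mark dorsal identity, 3 rose and 0 fell. Without the 3 deviating arrays 3 rose and 2 fell, with the nose receptor covariate 4 rose and 2 fell, and in each Xist fit 1 rose. Emx2, a factor of the caudal and medial pallium, had 8.12, 8.60 and 8.07 in GBS, against 6.30, 6.27 and 6.18 in GS (4.03-fold, adjusted p = 2.74e-05), and its call held. Neurog2, which starts glutamatergic neurogenesis, rose by 0.78 (adjusted p = 0.0138), and Lhx9, a factor of the caudal forebrain, by 1.68 (adjusted p = 0.0178). Neurog2 lost its call without GBS replicate 2 or GS replicate 2 (adjusted p up to 0.0698). Lhx9 no longer passed without GS replicates 2 or 3 (adjusted p up to 0.0736). Neurod6, of maturing pallial neurons, had 6.86, 5.04 and 7.22 in GBS, against 8.64, 8.07 and 8.24 in GS, a difference of -1.94 ± 0.564 that did not pass (adjusted p = 0.0788, and 0.0166 without the 3 arrays). Of 14 cortical hem genes 4 rose and 1 fell: Bmp4, Wnt5a and Bmp7, given above, Zic1, a midline factor, which rose by 1.61 (adjusted p = 0.00611), and Rspo2, which fell. Of 11 genes of the hippocampal field 3 rose: Lef1, Nfia, a factor of gliogenesis and the dentate gyrus, by 0.99 (adjusted p = 0.00601), and Prox1, the factor of dentate granule cells, by 1.27 (adjusted p = 0.0146). Prox1 lost its call without GBS replicate 2 or GS replicate 2 (adjusted p up to 0.0761).

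Ventral identity genes that passed the test were lower. Of 17 tested subpallial and interneuron genes 0 rose and 3 fell, and the median was -0.40. All 17 differences lay below 0, while 43% of all genes tested lay above 0. Dlx6, a homeobox factor of ventral progenitors and interneurons, had 7.75, 7.22 and 7.43 in GBS, against 8.81, 9.15 and 8.87 in GS (2.78-fold lower in GBS, adjusted p = 0.00234), and its call held. Dlx1 had 7.37, 6.83 and 7.18 in GBS, against 7.78, 8.23 and 8.37 in GS (difference -1.0003 ± 0.162, adjusted p = 0.00599) and Dlx5 7.43, 6.94 and 7.53 in GBS, against 8.10, 8.20 and 8.21 in GS (difference -0.87 ± 0.176, adjusted p = 0.0177). In each of the 3 the GBS arrays lay below all GS arrays, as in every gene called lower. Dlx5 no longer passed without GBS replicate 2 or GS replicates 1 or 2 (adjusted p up to 0.0751). With only low-Xist arrays or with Xist as a covariate 1 of the 17 fell. The nose receptor genes had a median difference of -0.15 over its 208 tested members, with 0 called.

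Neuronal genes that passed the test were lower, and the GS arrays were widely spread. Of 18 genes for the cytoskeleton and RNA-binding proteins of postmitotic neurons 0 rose and 3 fell, with a median of -0.59. The mean of the list was 8.49, 8.22 and 8.84 in GBS, against 9.43, 9.38 and 8.70 in GS. GS replicate 3 thus lay within the range of GBS, apart from the other GS arrays. Nefm, a neurofilament, had 6.27, 6.06 and 6.53 in GBS, against 8.16, 7.92 and 7.09 in GS (difference -1.43 ± 0.275, adjusted p = 0.0138). Mapt, the gene for tau, fell by 0.77 (adjusted p = 0.0138) and Gap43, of growth cones, by 1.51 (adjusted p = 0.0479). Nefm and Mapt lost their calls without GBS replicate 2 or GS replicates 1 or 2 (adjusted p up to 0.0712 and 0.0708). Gap43 no longer passed without any 1 array other than GBS replicate 3, GS replicate 3 or GB replicate 2 (adjusted p up to 0.178). Of 17 synapse genes 0 rose and 2 fell (median -0.41): the postsynaptic scaffold gene Shank1, by 0.73 (adjusted p = 0.00577), and Syt4, a synaptotagmin, by 1.27 (adjusted p = 0.0467). Syt4 lost its call without any 1 array other than GBS replicate 3 or GB replicate 2 (adjusted p up to 0.159). Of 13 glutamate and GABA receptor genes 0 were called, though 12 of 13 differences were below 0 and the median was -0.93. Over all genes tested 43% of differences lay above 0.

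The counts for neuronal genes depend on 3 arrays. Without GS replicate 3, GB replicate 2 and Control replicate 3, which deviate together, 8.77% of all genes were lower in GBS and 8.2% higher. In that fit 15 of 18 postmitotic neuron genes fell (median -0.80), 13 of 17 synapse genes fell (median -0.60) and 10 of 13 glutamate and GABA receptor genes fell while 1 rose (median -1.14). Slc17a6, the vesicular glutamate transporter of many subcortical neurons, shows the pattern at 5.87, 5.68 and 6.30 in GBS, against 8.23, 7.43 and 6.41 in GS: GS replicate 3 lay near the GBS arrays and the others far above (adjusted p = 0.0585, and 0.000568 without the 3 arrays). Grin2b, an NMDA receptor subunit, had 6.93, 5.90 and 7.33 in GBS, against 8.34, 8.38 and 7.47 in GS (adjusted p = 0.105, and 0.00398 without them). Among other counts that differed by more than 1.5 times in that fit were 6 higher and 1 lower of the 19 WNT receptor and R-spondin genes, 5 higher of the 13 cyclin and kinase genes, 4 lower of the 13 cortical layer genes, 4 lower of the 8 oligodendrocyte genes, 3 lower of the 17 progenitor genes, 3 lower of the 10 meningeal genes and 5 lower of the 17 subpallial genes. With Xist as a covariate 0 genes of these 3 lists were called, and with only low-Xist arrays 3, 2 and 3 fell.

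**Figure D3:**
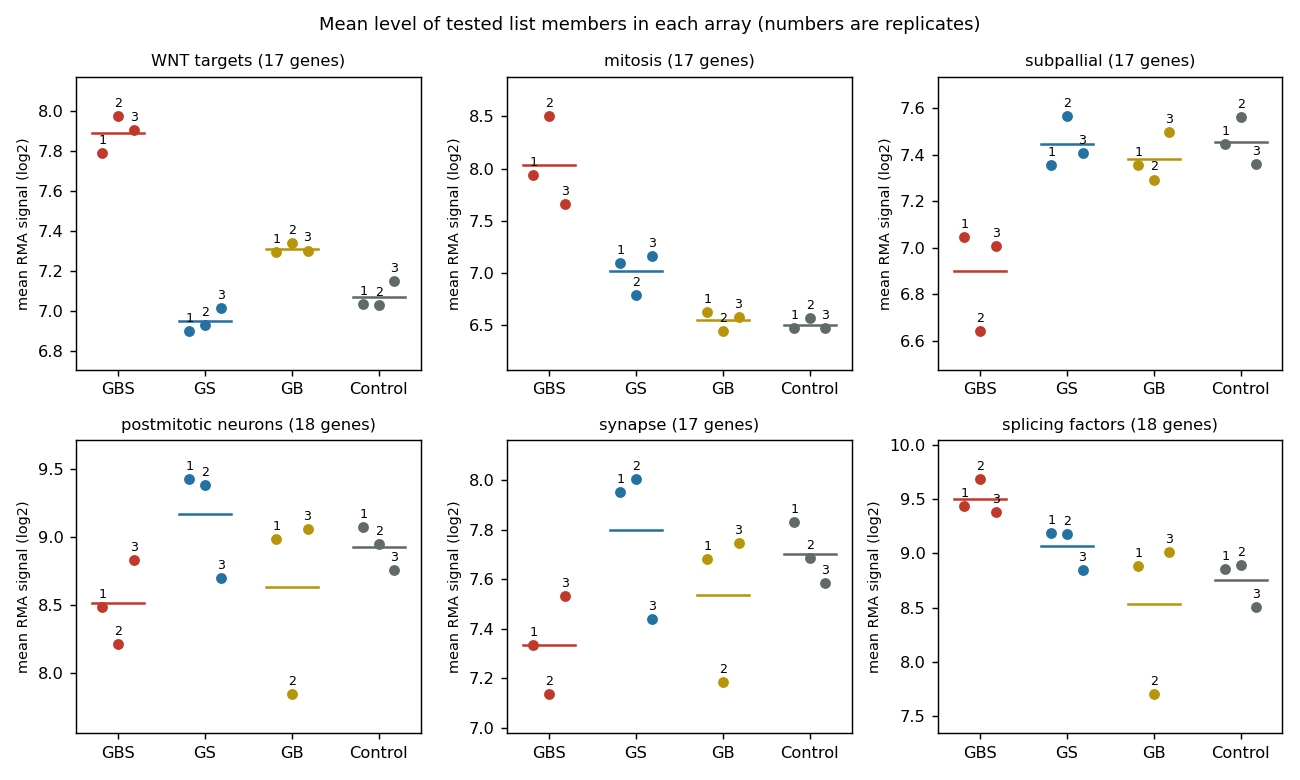
Mean RMA signal (log2) of the tested members of 6 gene lists in each array, with points numbered by replicate and bars for group means. The GBS arrays lie above all others for WNT targets and mitosis and below all others for subpallial genes, while GS replicate 3, GB replicate 2 and Control replicate 3 are each lowest of their group for postmitotic neurons, synapse genes and splicing factors.

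Among neurons of defined kinds, 1 of 13 cortical layer genes fell, Foxp2, of deep layers, by 0.92 (adjusted p = 0.0441). Of 7 genes of Cajal-Retzius neurons 2 fell: Ndnf, a secreted factor, at 6.36, 5.99 and 6.14 in GBS, against 7.07, 7.27 and 6.89 in GS (difference -0.91 ± 0.159, adjusted p = 0.00864), and Reln, the secreted guide of cortical layering, by 0.82 (adjusted p = 0.035). Foxp2 and Reln no longer passed without any 1 array other than GS replicate 3 or GB replicates 2 or 3 (adjusted p up to 0.204 and 0.147). Trp73, another marker of these cells, had 6.83, 6.60 and 6.55 in GBS, against 6.78, 6.81 and 6.999 in GS, with no call (adjusted p = 0.432).

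Guidance and adhesion genes changed in both directions. Of 25 axon guidance genes 3 rose and 3 fell. Slit2, a repellent ligand, had 9.04, 9.42 and 9.08 in GBS, against 7.46, 7.52 and 6.87 in GS (3.72-fold, adjusted p = 0.00212), and its call held. The netrin receptor Dcc rose by 1.74 (adjusted p = 0.0354) and Sema6a, a transmembrane semaphorin, by 0.77 (adjusted p = 0.0202). Among the 3 that fell were Sema3c and Sema3e, secreted semaphorins, by 1.49 and 0.48 (adjusted p = 0.0348 and 0.0174). Without the 3 deviating arrays 4 axon guidance genes rose and 10 fell, with the nose receptor covariate 3 and 10, with only low-Xist arrays 3 and 0, and with Xist as a covariate 1 and 0. Dcc lost its call without any 1 array other than GB replicates 1, 2 or 3 (adjusted p up to 0.169). Sema6a no longer passed without GBS replicates 2 or 3 (adjusted p up to 0.101). Sema3c lost its call without GBS replicates 1, 2 or 3, GS replicates 1 or 2 or Control replicate 2 (adjusted p up to 0.168). Sema3e no longer passed without GBS replicate 2 or GS replicate 2 (adjusted p up to 0.0864). Of 20 cadherin and adhesion genes 1 rose and 4 fell (median -0.52). Those that fell numbered 14 both without the 3 deviating arrays and with the nose receptor covariate, 8 with only low-Xist arrays, 6 without GS replicate 3 and 1 with Xist as a covariate, with 1 higher in each of these fits. Cdh1, the cadherin of epithelia, had 8.67, 9.59 and 8.21 in GBS, against 6.43, 6.40 and 6.68 in GS (5-fold, adjusted p = 0.000633), and its call held. Cntn2, an axonal adhesion protein, had 7.24, 7.23 and 7.12 in GBS, against 7.83, 7.61 and 7.74 in GS (difference -0.53 ± 0.0945, adjusted p = 0.00973), and its call held as well. Cdh12, Pcdh8 and Cdh6, a cadherin, a protocadherin and a further cadherin, fell by 1.55, 0.65 and 0.52 (adjusted p = 0.0151 to 0.0486). Cdh12 lost its call without any 1 array other than GS replicate 3 or GB replicates 2 or 3 (adjusted p up to 0.232). Pcdh8 no longer passed without GBS replicate 2 or GS replicate 2 (adjusted p up to 0.076). Cdh6 lost its call without GBS replicates 1, 2 or 3, GS replicate 1 or Control replicates 1 or 3 (adjusted p up to 0.0991).

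Markers of other cell types gave few calls. Of 9 astrocyte genes 2 fell, Aqp4, a water channel, by 0.52 and Apoe by 0.39 (adjusted p = 0.0291 and 0.0361), and of 8 genes of the oligodendrocyte lineage 2 fell, Olig1 at 6.58, 6.34 and 6.31 in GBS, against 6.91, 6.98 and 7.001 in GS (adjusted p = 0.00857) and Gpr17 by 0.52 (adjusted p = 0.0349). Aqp4 no longer passed without any 1 array other than GS replicate 3, GB replicates 1, 2 or 3 or Control replicate 3 (adjusted p up to 0.132). Apoe lost its call without any 1 array other than GB replicates 1 or 2 (adjusted p up to 0.16). Gpr17 no longer passed without any 1 array other than GB replicates 1, 2 or 3 or Control replicate 2 (adjusted p up to 0.154). Limma called 0 genes for microglia (9 tested, median -0.19), endothelium (12, -0.03), ependyma (5, -0.19), midbrain and hindbrain (9, -0.10) and erythroid cells (2, 0.08). Without the 3 deviating arrays 1 microglial gene was lower and 1 endothelial gene higher. Of 8 choroid plexus genes 2 rose, Sostdc1 and Clic6, a chloride channel protein at 7.99, 9.08 and 7.93 in GBS, against 5.73, 6.15 and 5.94 in GS (5.25-fold, adjusted p = 0.00045). Ttr, transthyretin, the most abundant product of this tissue, had 5.63, 5.93 and 5.72 in GBS, against 9.92, 9.49 and 6.08 in GS: it was high in GS replicates 1 and 2 and not in the third (adjusted p = 0.331). Of the 8 differences 2 were above 0 and 6 below. The part of choroid plexus tissue in these differences was not tested.

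Dcn, a proteoglycan of connective tissue, was the 1 higher gene of 10 for meninges and fibroblasts, with 10.65, 10.63 and 10.67 in GBS, against 7.68, 7.62 and 6.43 in GS (10.6-fold, adjusted p = 0.00115). In this list 9 of the 10 differences were below 0, while 43% of all genes tested lay above 0. The mean of that list was 7.50, 7.36 and 7.67 in GBS, against 7.49, 7.59 and 7.26 in GS. Mybpc1, a myosin-binding protein of muscle, was the 1 higher gene of 10 for skeletal muscle, with 9.87, 10.15 and 10.32 in GBS, against 6.30, 6.26 and 6.57 in GS (13.3-fold, adjusted p = 3.96e-05), and the other muscle genes differed by at most 0.25 in either direction. Both calls held.

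**Figure D4:**
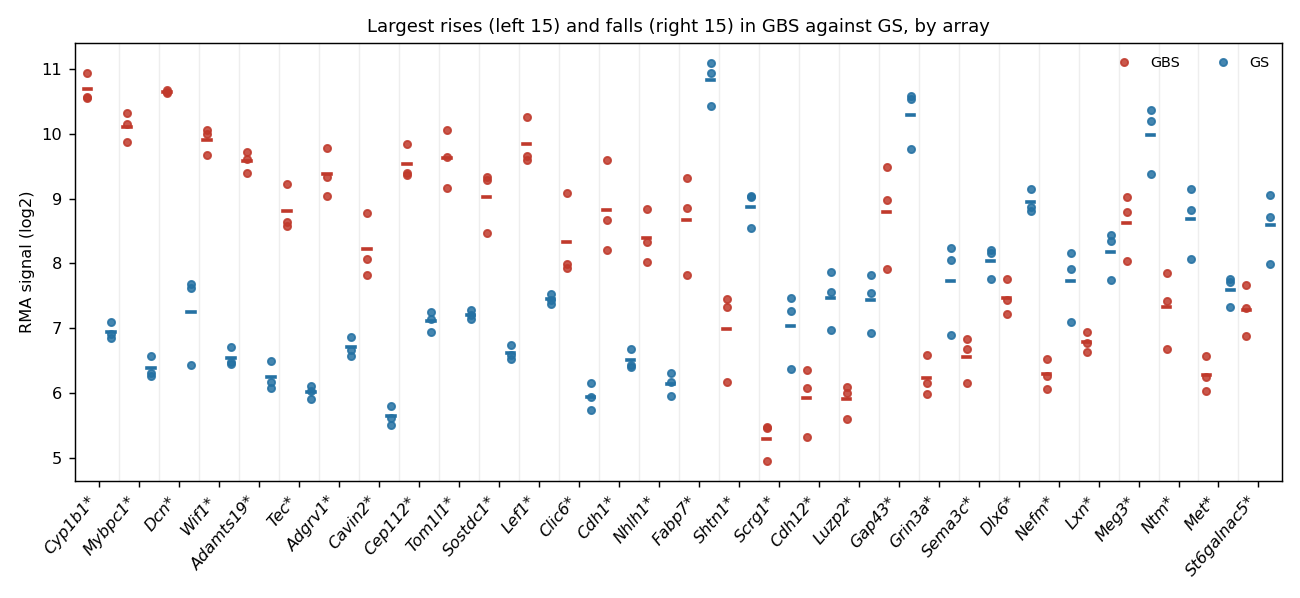
RMA signal (log2) in each GBS array (red) and GS array (blue) for the 15 largest rises, on the left, and the 15 largest falls, on the right, among called genes whose arrays do not overlap, with bars for group means. The rises are larger than the falls, and the GS arrays of the falling genes are spread more widely than those of most rising genes.

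The largest rises included genes outside these pathways. Cyp1b1, a cytochrome P450 enzyme that oxidises retinoids and steroids, had 10.56, 10.94 and 10.56 in GBS, against 7.09, 6.85 and 6.91 in GS (13.4-fold, adjusted p = 2.76e-05). Adamts19, a matrix protease, had 9.40, 9.72 and 9.62 in GBS, against 6.16, 6.08 and 6.50 in GS (10.1-fold, adjusted p = 3.54e-05). Tec, a cytoplasmic tyrosine kinase, had 8.64, 9.22 and 8.58 in GBS, against 6.11, 5.90 and 6.03 in GS (6.96-fold, adjusted p = 1.63e-05). The adhesion receptor Adgrv1 was 6.41-fold higher, the caveola protein gene Cavin2 6-fold, the centrosome protein gene Cep112 5.38-fold, the endosomal adaptor gene Tom1l1 5.33-fold and the neuronal transcription factor gene Nhlh1 4.78-fold (adjusted p = 3.27e-05 to 0.000135 for the first 3, 0.000426 for Tom1l1 and 3.96e-05 for Nhlh1). All 15 largest rises held.

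Calls among the 15 largest falls were less firm. Scrg1, a small secreted protein, had 5.47, 4.95 and 5.45 in GBS, against 7.46, 7.26 and 6.38 in GS (3.35-fold lower in GBS, adjusted p = 0.00291), and Lxn, a carboxypeptidase inhibitor, had 6.62, 6.78 and 6.94 in GBS, against 8.35, 8.44 and 7.74 in GS (2.63-fold lower, adjusted p = 0.00237). Of the 15 largest falls only these and Dlx6 held. Shtn1, which links actin to adhesion in outgrowing axons, had 7.33, 6.16 and 7.45 in GBS, against 9.04, 9.03 and 8.55 in GS (3.71-fold lower, adjusted p = 0.0222). The receptor tyrosine kinase gene Met fell by 1.32, the NMDA receptor gene Grin3a by 1.49, the adhesion gene Ntm by 1.36, the membrane protein gene Luzp2 by 1.53, the sialyltransferase gene St6galnac5 by 1.30 and the long noncoding RNA Meg3 by 1.37 (adjusted p = 0.00609 to 0.045). Shtn1 lost its call without GBS replicate 2 or GS replicates 1 or 2 (adjusted p up to 0.0928). Grin3a and Meg3 no longer passed without any 1 array other than GBS replicate 3, GS replicate 3 or GB replicates 1, 2 or 3 (adjusted p up to 0.162 and 0.142). Ntm and St6galnac5 lost their calls without any 1 array other than GBS replicate 3, GS replicate 3 or GB replicates 2 or 3 (adjusted p up to 0.202 and 0.17). Luzp2 no longer passed without GBS replicate 2 or GS replicate 2 (adjusted p up to 0.0532). The call of Met ended with Xist as a covariate (adjusted p = 0.0589).

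Lists on metabolism and RNA handling had few or no calls. Of 15 glycolysis genes 2 rose, Ldha, lactate dehydrogenase, at 9.44, 9.92 and 9.16 in GBS, against 8.62, 8.55 and 8.18 in GS (adjusted p = 0.00735), and Pgk1 by 1.24 (adjusted p = 0.0357), whose near-identical retrocopies make its reading uncertain. Pgk1 lost its call without any 1 array other than GBS replicate 3, GB replicates 1, 2 or 3 or Control replicate 3 (adjusted p up to 0.141). Of 18 splicing factor genes 0 were called, though all 18 differences were above 0, as were 43% of all genes tested (list median 0.45). Without the 3 deviating arrays 10 of these genes rose. Respiratory chain genes (16), cholesterol synthesis genes (12) and interferon response genes (3) gave 0 calls, with medians of 0.27, -0.17 and -0.05. Without the 3 deviating arrays 5 cholesterol synthesis genes were lower. Among 11 tested oncofetal and LIN28-linked genes 0 rose and 2 fell, Meg3 and the retinoic acid binding protein gene Crabp1 (by 0.71, adjusted p = 0.0316). Crabp1 no longer passed without GBS replicate 2, GS replicates 1 or 2 or Control replicate 1 (adjusted p up to 0.136). Lin28a, an RNA-binding protein of embryonic cells, had 6.74, 6.52 and 6.73 in GBS, against 6.69, 6.84 and 6.74 in GS, with arrays of the groups interleaved (difference -0.09 ± 0.121, adjusted p = 0.729).

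GB was compared with Control as a setting in which the Ctnnb1 allele is activated without SmoM2. Cre differs in this comparison as well, and its part was not tested. The arrays are separate from those of GBS and GS. However, GB replicate 2 and Control replicate 3 deviated from their groups together with GS replicate 3 (correlations of 0.739 to 0.833). They correlated across genes at 0.586 to 0.982 within GB and at 0.952 to 0.979 within Control. Medians of nose receptor genes were 5.07, 5.35 and 5.02 in GB, against 5.17, 5.12 and 5.23 in Control. Xist was 4.89, 8.66 and 10.53 in GB, against 4.92, 5.02 and 4.91 in Control. Xist is thus higher on the GB side here and lower on the GBS side in GBS against GS, and these imbalances add up in the interaction. Limma called 0 genes in GB against Control, with 156 at an unadjusted p under 0.05. Without the 3 deviating arrays it called 25 higher (0.176%) and 1 lower (0.00704%). By direction, 440 of the 505 genes higher in GBS (87.1%) had a GB minus Control difference above 0, as had 50.8% of all genes, and their median was 0.12. Of the 215 genes lower in GBS, 179 (83.3%) had a difference below 0, as had 49.2% of all genes, with a median of -0.09. Because of the shared deviation these comparisons are not fully independent. Directions were not counted without the 3 deviating arrays. Wif1 had 7.66, 7.24 and 7.49 in GB, against 6.60, 6.77 and 6.84 in Control. Axin2 had 7.88, 7.58 and 7.95 in GB, against 6.99, 7.04 and 7.18 in Control. In both genes every GB array was above every Control array, though limma made no call there (adjusted p = 0.661 for Wif1 and 0.494 for Axin2). The share of all genes separated in this way between GB and Control was not counted, so the separation adds nothing to these values.

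The difference between these comparisons was tested by the interaction, GBS minus GS less GB minus Control, which also holds the difference in Cre between GB and Control. It was above 0 past the test for 46 genes (0.324%) and below 0 for 1 gene (0.00704%), and all 47 were also called in GBS against GS in the same direction. At an unadjusted p under 0.05 there were 1158. Wif1 had an interaction of 2.64 ± 0.197 (adjusted p = 0.000576), Tec of 2.71 ± 0.242 (adjusted p = 0.00174), and Cavin2 of 2.33 ± 0.277 (adjusted p = 0.00506). Tec and Cavin2 differed by 0.09 and 0.26 in GB minus Control. Fst (1.97, adjusted p = 0.00476), Mcm6 (2.05, adjusted p = 0.0303), Bmp4 (1.48, adjusted p = 0.0261) and Ptch1 (0.96, adjusted p = 0.0424) also had GB minus Control differences within 0.16 of 0. Of the WNT target list 5 members passed, with an interaction of 1.01 for Axin2 (adjusted p = 0.0421), 1.57 for Lef1 (adjusted p = 0.0261) and 1.22 for Tnfrsf19 (adjusted p = 0.00476). Nhlh1 differed by 2.26 in GBS minus GS and by 1.34 in GB minus Control, and its interaction of 0.91 did not pass (adjusted p = 0.254).

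In the mitosis list 0 of 17 interactions passed, though the GB minus Control median was 0.05 beside 1.14 for GBS minus GS. Prm1, a protamine gene of sperm, was the gene with a negative interaction (-2.17, adjusted p = 0.0112), with 8.60, 7.99 and 8.87 in GBS, against 9.66, 9.13 and 9.40 in GS and a GB minus Control difference of 1.26. The count of interactions ranged from 15 without GS replicate 2 to 57 without GB replicate 2, and was 413 without the 3 deviating arrays, 1 with only low-Xist arrays and 0 with Xist as a covariate. The part of sex in the interaction was not tested apart from these fits.

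**Figure D5:**
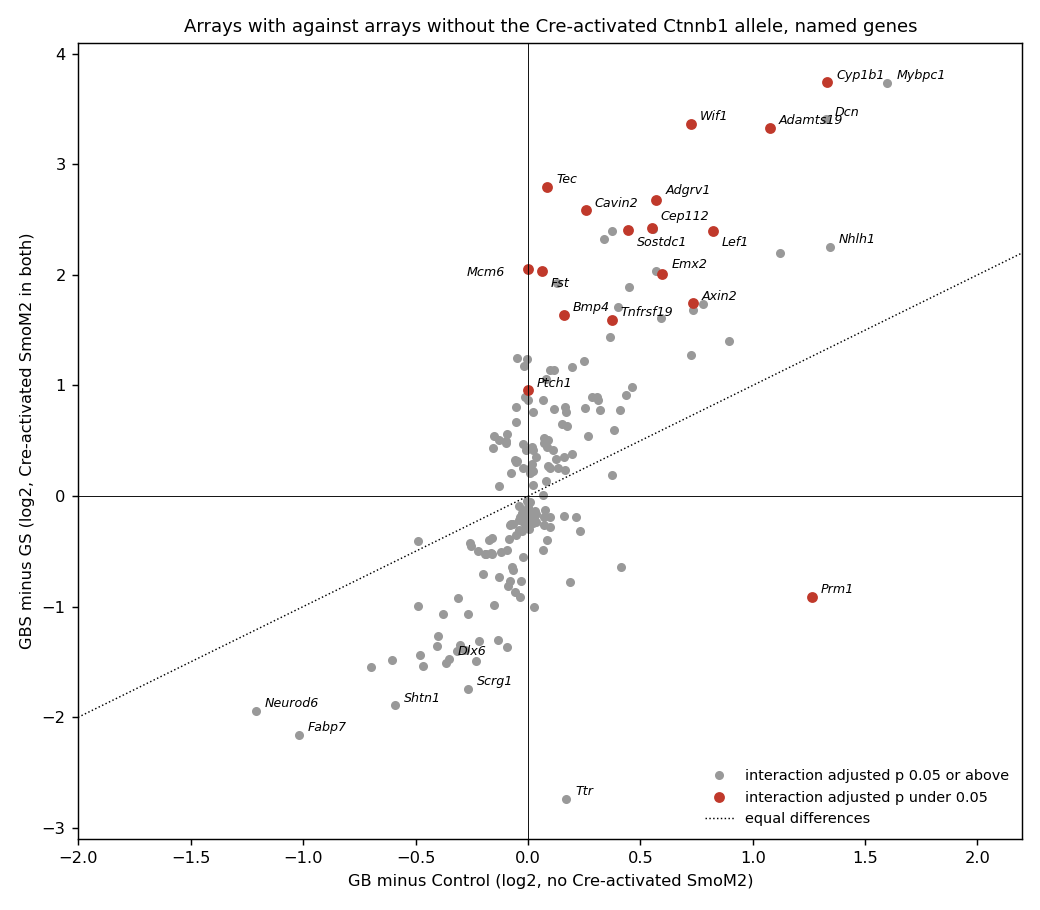
GBS minus GS (vertical, log2) against GB minus Control (horizontal, log2) for the genes named by rule, with red points for an interaction at an adjusted p under 0.05 and a dotted line of equal differences. Most red points lie above the line with GB minus Control between 0 and 1.33, and Prm1 lies alone at the lower right.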

How the data were processed

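RNA from the forebrain of newborn mice (postnatal day 0) was measured on 12 Affymetrix arrays, 3 per genotype. The deposited values are log2 signals. Per the submitters' processing notes they come from RMA, run in Expression Console (Affymetrix, version not given). RMA quantile-normalizes the arrays together, so a shift shared by most genes of an array is reduced before deposit. It is not wholly removed: array medians of the deposited values ran from 6.52 to 6.69. The precision is limited by the number of arrays.

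Of 35556 probe sets, 21789 were named by 1 gene symbol of the platform annotation, 1621 by several, and 12146 had none in the table used and were not analysed here. Each of the 19938 genes took its probe set of highest mean. The 14195 genes tested were those brighter than 40% of all probe sets on at least 3 of the arrays. All 4 genotypes entered 1 model in limma 3.58.1 (R 4.3.3), with 8 residual and 2.9 prior degrees of freedom. Contrasts were moderated tests, two-sided, with Benjamini-Hochberg adjustment over all tested genes and a threshold of 0.05, and ± in the text is the standard error of the difference. The fit was also run on simulated arrays with independent errors, which lack the shared deviation of the 3 deviating arrays. The p-values set each difference against the spread between arrays of the same genotype. They take the arrays as independent, although GS replicate 3, GB replicate 2 and Control replicate 3 deviate together. Gene names, chromosomes and promoter windows came from RefSeq tables of GRCm38.p6.

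The alternatives were no filter or one at 60% of probe sets, averaged probe sets, renewed quantile normalization, median centring, trended and robust variances, array weights, a fit of the contrast's own groups, the replicate number as a block, Xist or the median of nose receptor genes as a covariate, X and Y genes left out, GS replicate 3, GB replicate 2 and Control replicate 3 left out together, each array left out in turn, and stricter thresholds. The fit with only low-Xist arrays was added after seeing the data.

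Named genes were Smo, Ctnnb1, Ptch1, Gli1, Hhip, Axin2, Lef1, Wif1, Nkd1, Notum, Lin28a, Mki67, Pax6 and Fabp7, the 15 largest rises and 15 largest falls among called genes whose GBS and GS arrays do not overlap, the 5 largest called interactions in each direction, and up to 4 members of lowest adjusted p in each list with any member called against its list's median. Predicted genes, clones, chemoreceptors and sex genes were left out of the ranked parts. The comparison, the gene lists and the named genes were chosen with earlier results of these data known.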

Additional observations from a re-analysis of the deposited data

Results flagged for a closer look

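For 17 of the 195 genes named by rule the GBS minus GS difference differed from the GB minus Control difference by the interaction test of limma at an adjusted p under 0.05. Over all genes tested the interaction was above 0 in 0.324% and below 0 in 0.00704%. The naming rule itself takes in the largest called interactions and the largest rises, so the count of 17 is partly set by that choice. No array stands in both differences, but the 3 deviating arrays, which deviate together, are spread over both. Cre differs between GB and Control and not between GBS and GS, and mean Xist was lower in GBS than in GS and higher in GB than in Control. Among WNT genes the interaction (log2) was 2.64 for Wif1, 1.57 for Lef1, 1.22 for Tnfrsf19 and 1.01 for Axin2 (adjusted p = 0.000576, 0.0261, 0.00476 and 0.0421 in that order). Sostdc1, an antagonist of BMP and WNT ligands, had 1.97, the BMP ligand gene Bmp4 1.48 and the follistatin gene Fst 1.97 (adjusted p = 0.0261, 0.0261 and 0.00476). Ptch1, the SHH receptor gene, had 0.96 (adjusted p = 0.0424), the helicase subunit gene Mcm6 2.05 (adjusted p = 0.0303) and the pallial factor gene Emx2 1.41 (adjusted p = 0.0125). Of the largest rises outside these groups, Tec had 2.71, Cyp1b1 2.41, Cavin2 2.33, Adamts19 2.26, Adgrv1 2.11 and Cep112 1.88 (adjusted p = 0.00174, 0.0261, 0.00506, 0.0261, 0.0102 and 0.0291).

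The protamine gene Prm1 was the 1 called gene with an interaction below 0, at -2.17 (adjusted p = 0.0112). It differed by -0.91 in GBS minus GS and by 1.26 in GB minus Control. With Xist as a covariate 0 interactions passed, and with only low-Xist arrays 1 did.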

How the results depend on the processing

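Beside 505 higher and 215 lower genes in GBS against GS, limma called 1791 and 1864 with array weights (whose estimation stopped before convergence), 844 and 1262 with the median of nose receptor genes as a covariate, 1164 and 1245 without the 3 deviating arrays, 124 and 17 with Xist as a covariate, 217 and 37 at an adjusted p under 0.01, and 185 and 28 at 2-fold or more. It called 453 and 140 after centring, 506 and 126 with only GBS and GS, and 190 and 179 with only low-Xist arrays. With the replicate number as a block it called 304 and 88, but same-numbered GBS and GS arrays deviated from their group means with correlations of -0.502, 0.0247 and -0.243, so the numbers do not pair them. Leaving out 1 array gave 247 to 1100 higher and 45 to 580 lower genes. In GB against Control there were 0 calls, but 1 after quantile normalization, 68 with array weights, 26 without the 3 arrays, 1 with only low-Xist arrays, and 0 to 7 with 1 array left out (7 without GB replicate 2).

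Interactions numbered 47, but 29 after quantile normalization, 1158 with array weights, 17 with the replicate block, 0 with Xist as a covariate, 249 with the nose receptor covariate, 413 without the 3 arrays, 1 with only low-Xist arrays and 12 at an adjusted p under 0.01. Leaving out 1 array gave 15 to 57, and under 32 without GBS replicate 2 or 3, any GS array, GB replicate 1 or any Control array. The other alternatives kept these counts within 1.5 times. The cause of these shifts was not tested. Over named genes and alternatives, 4416 values kept their direction and side of the threshold, 433 lost a call, 182 gained one, and 0 changed the sign of a called difference. Probe sets not above the filter give no bound on their RNA.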

Other observations

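Genes next to each other on a chromosome were compared after the values of Axin2 and Cep112 were seen. Among protein-coding genes in RefSeq order, 58 of 463 genes higher in GBS (12.5%) had a direct neighbour that was also higher, as had 714 of all 12335 tested genes with a tested neighbour (5.79%). No test was made of this difference. On chromosome 11 a run of 4 neighbours was higher: Cep112 by 2.43, Axin2 by 1.74, Rgs9, a regulator of G protein signalling, by 1.03 and Gna13, a G protein subunit, by 0.60 (log2, adjusted p = 0.000135, 2.99e-05, 0.000331 and 0.0366 in that order). Nkd1 and its neighbour Brd7, a bromodomain protein, were higher by 2.03 and 2.13 (adjusted p = 0.000214 and 0.00333), and Sp5 and its neighbour Erich2 by 0.68 and 1.21 (adjusted p = 0.0154 and 0.00137). Adamts19 had a higher gene on either side, Isoc1 by 1.36 and Minar2 by 2.11 (adjusted p = 0.00222 and 0.00963). Overlap of probes or transcripts between such neighbours was not tested.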
